A study of Mus musculus with 12 samples.

Results

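The genes described here encode helix-loop-helix transcription factors: Msc (musculin, also known as MyoR), the 4 ID genes Id1, Id2, Id3 and Id4, and the E protein genes Tcf3, Tcf4 and Tcf12. They were chosen by gene symbol, and every probe set that the platform annotation gives to one of these symbols alone was taken, 23 of the 45101 probe sets of the array. The 8 genes stand among 18194 genes that were tested. E proteins bind the E-box of DNA as dimers, with themselves or with a tissue-restricted partner of the same family. ID proteins keep the dimerising helix-loop-helix but lack the basic stretch that touches DNA, so an E protein held by an ID protein cannot bind. MSC binds E-boxes together with E proteins and acts as a repressor, as first described in muscle precursors. ID genes are also known as targets of BMP and SMAD signals, which act in the growing follicle.

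RNA came from granulosa cells, the somatic cells that surround the oocyte, and was measured on 12 Affymetrix arrays in 4 groups of 3. The mice were wild type (WT) or lacked exon 6 of Snf2l (Ex6DEL), the gene of an ISWI chromatin remodelling ATPase. The deletion was made with a Gata-1 Cre line in a CD-1 background on loxP mice of 129Sv background, and the Ex6DEL line was then kept without the Cre on 129SV, with WT littermates as controls. All females, aged 24 to 26 days, received 5 IU of PMSG, which drives follicle growth. The 0 h groups (WT 0 h and Ex6DEL 0 h) were collected 48 h later, and the 4 h groups (WT 4 h and Ex6DEL 4 h) received 5 IU of hCG at that point, which acts as the ovulatory signal, and were collected 4 h after it. Each array held cells pooled from 5 mice and freed by puncturing follicles. The labels do not say whether the 3 arrays of a group were separate pools, so p-values measure only the spread between these arrays, which may be technical. Values are log2 intensities, in which 1 unit is a 2-fold difference. The lowest value of the table was 2.21, and the array medians lay between 2.75 and 2.91.

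Granulosa markers were high throughout, with a mean log2 value over 10 measured genes of 10.55 to 13.12, although Amh was at the floor on all arrays. Some arrays stood apart. The 15 measured LH-induced genes had a mean of 10.19 in Ex6DEL 0 h replicate 3, where the rest of the group had 5.36 and 5.74, and of 6.42 in WT 0 h replicate 1 against 5.08 and 5.49. The mean of the 12 genes that mark theca and stroma was 11.48 in Ex6DEL 0 h replicate 1 and 7.09 to 8.76 elsewhere. Oocyte markers were present too, at means of 6.19 to 8.02, with Figla, the oocyte partner of E proteins, within 0.1 of the floor on all 12 arrays. In such bulk samples fewer cells of a type and less RNA per cell cannot be told apart.

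The upstream sequences of Id2 and Id3 are shown because these ID genes had log2 changes of opposite sign after hCG. The Id3 change passed the test in Ex6DEL and in the mean of both genotypes but not in WT, and that of Id2 in none of these. Each run is the 250 bases before the annotated start in RefSeq (build GRCm38.p6), read 5′ to 3′ on the strand of the gene. Capitals mark an E-box (CANNTG) or a half-site of the cAMP response element (TGACG, or CGTCA on the other strand), the element bound by CREB factors.
Id2, chr12:25096093-25096342, minus strand: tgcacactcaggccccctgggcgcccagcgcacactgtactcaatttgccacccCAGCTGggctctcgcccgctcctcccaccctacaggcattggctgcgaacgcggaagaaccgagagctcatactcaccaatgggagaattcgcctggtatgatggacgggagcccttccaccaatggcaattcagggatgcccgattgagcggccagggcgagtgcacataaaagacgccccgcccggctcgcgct
Id3, chr4:136143572-136143821, plus strand: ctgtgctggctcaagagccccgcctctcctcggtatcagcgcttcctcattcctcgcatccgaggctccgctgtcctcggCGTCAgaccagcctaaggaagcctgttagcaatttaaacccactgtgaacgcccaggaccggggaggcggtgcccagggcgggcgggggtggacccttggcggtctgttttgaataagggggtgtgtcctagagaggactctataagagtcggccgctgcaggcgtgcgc
The Id2 window holds 1 E-box, which begins 196 bases before the start, and no half-site. The Id3 window holds 1 half-site, 170 bases before the start, and no E-box. Both motifs were searched on both strands and did not overlap each other here. Among 32851 promoter windows of the same length in the table, 66.2% hold at least 1 E-box and 17.8% at least 1 half-site. Of the other members the table held windows for Id4, with 1 half-site and no E-box, for Tcf3, with 1 E-box, and for 3 starts of Tcf12, of which 2 hold 1 E-box each. Msc, Id1 and Tcf4 are named only.

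Over both genotypes the hCG response was uneven among the 8 genes, and few passed the test of limma. In WT 1 of the 8 was called, Msc upward, where 0.929% of all genes were called, 0.61% up and 0.319% down. An unadjusted p under 0.05 was reached by 2 of the 8 and by 14.4% of all genes. In Ex6DEL 2 of the 8 were called, Msc up and Id3 down, where 2.17% of all genes were called, 0.566% up and 1.6% down. An unadjusted p under 0.05 was reached by 4 of the 8 and by 18.9% of all genes. In WT the arrays of the 2 times did not overlap for 1 gene that was higher at 4 h and 2 that were lower, against 7.52% and 11.4% of all genes (18.9% in either direction). In Ex6DEL the counts were 2 and 3, against 5.13% and 14.5% (19.7% in either direction). The median change of the 8 genes was 0.20 in WT and -0.07 in Ex6DEL, beside 0 and -0.01 for all genes. For genes whose mean level lay above the median of all genes it was -0.07 in WT and -0.34 in Ex6DEL. Among the 23 probe sets 1 was called in WT and 2 in Ex6DEL, against 0.618% and 0.858% of all sets.

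Msc had the largest response of the 8 genes to hCG, in both genotypes. It is represented by 1 probe set, 1418417_at. In WT at 0 h the arrays read 4.69, 4.14 and 4.23, and at 4 h 13.42, 11.84 and 11.06. In Ex6DEL they read 4.14, 3.92 and 7.84 at 0 h and 12.53, 11.39 and 12.29 at 4 h. Every 4 h array lay above every 0 h array, and the 0 h array nearest to the 4 h arrays, at 7.84, was Ex6DEL replicate 3, the array with the raised LH-induced genes. Msc rose by 7.75 on the log2 scale in WT (SE 1.02, limma adjusted p = 0.0194), a 215-fold difference. It rose by 6.77 in Ex6DEL (SE 1.02, limma adjusted p = 0.0285), a 109-fold difference. Both changes ranked 8th from the top among the 18194 genes. The call in WT was lost without WT 4 h replicate 1 (7.10, adjusted p = 0.0583), WT 4 h replicate 2 (7.88, adjusted p = 0.0668) or WT 0 h replicate 2 (7.65, adjusted p = 0.0665), and the change ranged from 7.10 to 8.27 without single arrays. In Ex6DEL it ranged from 6.08 to 8.04, the latter without 0 h replicate 3, and passed in 6 of these 12 fits. It was lost there without WT 4 h replicate 2, WT 0 h replicate 2, Ex6DEL 0 h replicates 1 or 2, or Ex6DEL 4 h replicates 1 or 3. Fitted on the groups compared alone, neither genotype gave a call for any of the 8 genes (Msc, adjusted p = 0.0662 in WT and 0.182 in Ex6DEL). With the replicate number as a block, the Ex6DEL call of Msc was lost (adjusted p = 0.0559), and that in WT was not (adjusted p = 0.0486). Of all 18194 genes the main fit called 169 in WT and 394 in Ex6DEL. The block called 85 and 92, and fits without 1 array 50 to 344 and 26 to 1256.

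**Figure D1:**
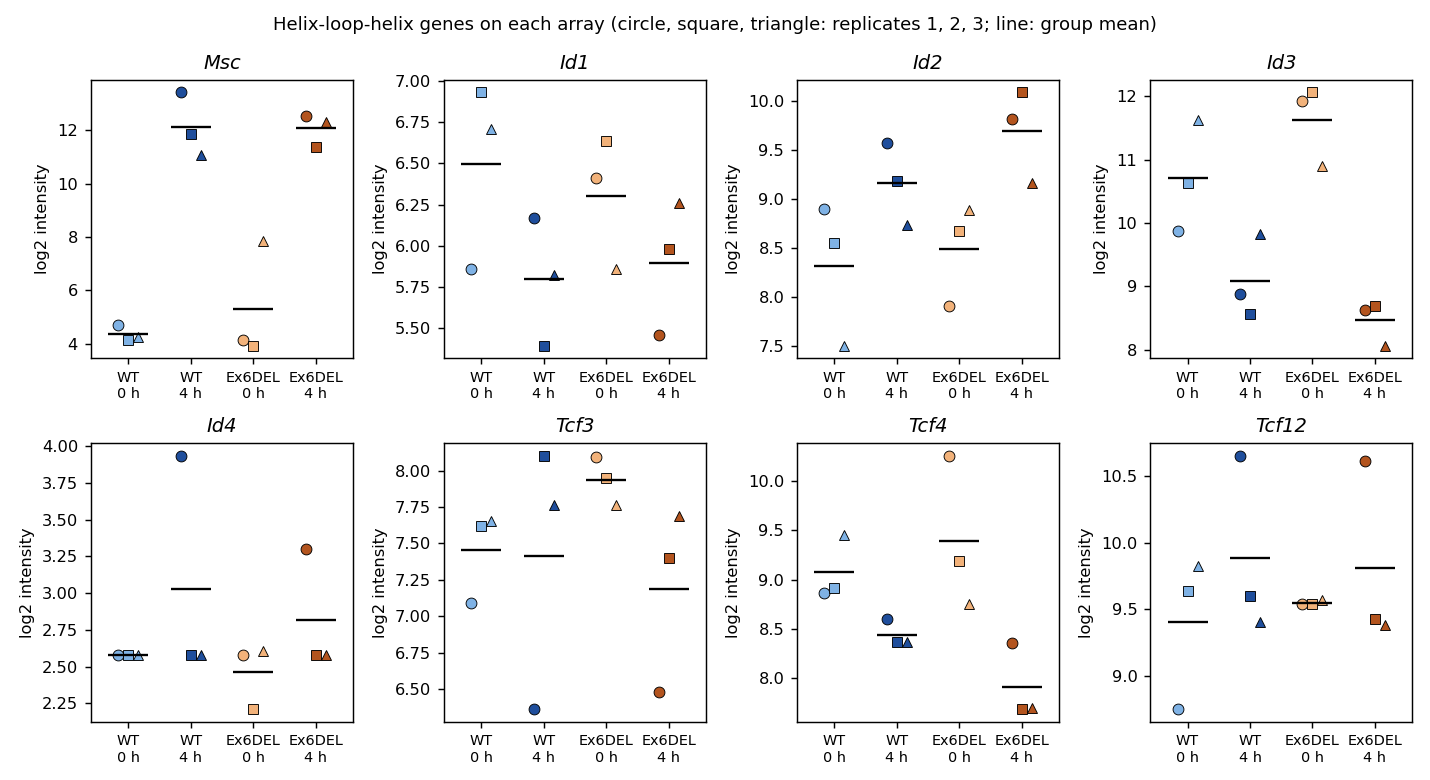
Log2 intensity (vertical axes, one scale per gene) of the brightest probe set of each of the 8 genes on the 12 arrays, by group; circles, squares and triangles are replicates 1, 2 and 3, and the line is the group mean. Msc at 4 h (11.06 to 13.42) lies above all 0 h arrays (3.92 to 7.84), Id3 and Tcf4 lie lower at 4 h, and replicate 1 stands apart at 4 h in Tcf12, Tcf3 and Id4.

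The ID genes did not move together after hCG. Id3, whose protein sequesters E proteins and which is known in lymphocytes and vessels, had the opposite course to Msc. Its probe set 1416630_at read 9.87, 10.62 and 11.63 in WT at 0 h and 8.88, 8.56 and 9.83 at 4 h. In Ex6DEL it read 11.92, 12.06 and 10.90 at 0 h and 8.63, 8.69 and 8.06 at 4 h. The groups did not overlap within either genotype, and the lowest 0 h value of all, 9.87, lay just above the highest 4 h value, 9.83. Id3 fell by 3.16 in Ex6DEL (SE 0.52, limma adjusted p = 0.0323), an 8.95-fold difference. In WT its change was -1.62 (SE 0.52, interval -2.80 to -0.44), with an adjusted p of 0.202, so it was not called there. Without single arrays the Ex6DEL change ranged from -3.53 to -2.94 and passed in 5 of 12 fits. Id3 was lost from the calls without each of the Ex6DEL arrays except 0 h replicate 3, and also without WT 0 h replicate 2 or WT 4 h replicate 2. It was also lost with the replicate number as a block (adjusted p = 0.0643) and when only the Ex6DEL groups were fitted (adjusted p = 0.134).

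Id2, which is known for lymphoid and mammary development, was higher at 4 h without passing the threshold in either genotype. Its brightest probe set, 1435176_a_at, read 8.89, 8.55 and 7.50 in WT at 0 h and 9.57, 9.18 and 8.74 at 4 h, and these groups overlapped. In Ex6DEL it read 7.91, 8.67 and 8.89 at 0 h and 9.82, 10.09 and 9.17 at 4 h, and these did not overlap. The Id2 change in WT was 0.85 (SE 0.43, adjusted p = 0.426). Its change in Ex6DEL was 1.20 (SE 0.43, adjusted p = 0.174). The other Id2 probe sets had changes of 0.53 and 0.48 in WT and 0.94 and 0.26 in Ex6DEL, all positive and none called. These sets were dim, with means of 3.90 and 2.55. Id1, best known in endothelium and as a BMP target, read 5.86, 6.93 and 6.71 in WT at 0 h and 6.17, 5.40 and 5.83 at 4 h. In Ex6DEL it read 6.41, 6.63 and 5.86 at 0 h and 5.46, 5.98 and 6.26 at 4 h. The Id1 groups overlapped in both genotypes, and its changes were -0.70 in WT and -0.40 in Ex6DEL, with adjusted p-values of 0.419 and 0.577. The lowest 0 h values of Id1 were those of WT replicate 1 and Ex6DEL replicate 3, both 5.86, the arrays with raised LH-induced genes. Without both, the Id1 change was -1.02 in WT and -0.62 in Ex6DEL, with adjusted p-values of 0.165 and 0.282.

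Id4, an ID gene of the developing nervous system, could hardly be measured. Its 3 probe sets had means over the 12 arrays of 2.72, 2.54 and 2.21. The dimmest was at the floor on all 12 arrays, and the brightest read 2.58 on 8 of them to 2 decimals. Only WT 4 h replicate 1, at 3.94, and Ex6DEL 4 h replicate 1, at 3.30, lay clearly above that on the brightest set. The Id4 change was 0.45 in WT and 0.35 in Ex6DEL, with adjusted p-values of 0.614 and 0.648, and without WT 4 h replicate 1 the value in WT was 0.

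Among the E protein genes, Tcf4 was lower at 4 h in both genotypes. Its brightest probe set, 1416723_at, read 8.86, 8.91 and 9.45 in WT at 0 h and 8.60, 8.36 and 8.36 at 4 h. In Ex6DEL it read 10.26, 9.19 and 8.75 at 0 h and 8.35, 7.68 and 7.70 at 4 h. The groups overlapped in neither genotype. The Tcf4 change in WT was -0.63 (SE 0.37, adjusted p = 0.515). Its change in Ex6DEL was -1.49 (SE 0.37, adjusted p = 0.0746), so neither was called. Without Ex6DEL 0 h replicate 3 the Ex6DEL value was -1.81 (adjusted p = 0.0296). Of the 6 Tcf4 probe sets 5 had a negative change in each genotype, from -0.63 to -1.67 in WT and from -0.54 to -1.49 in Ex6DEL. The remaining set, whose mean was 2.54, had 0.01 and 0.27. All 4 h values lay below all 0 h values for 5 of the 6 sets in WT and for 3 in Ex6DEL, which held for 8.71% and 10.6% of all probe sets. These sets read the same gene on the same arrays and are not replicates.

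Markers of theca and stroma were set beside Tcf4 in Ex6DEL as a description, without a test. Their mean ran from 7.64 to 11.48 in Ex6DEL at 0 h and from 7.09 to 7.87 at 4 h. The highest value of both the list and Tcf4 belonged to replicate 1 of 0 h. Replicate 2 of 0 h had a marker mean of 8.54 and a Tcf4 value of 9.19. Replicate 3 of 0 h had a marker mean of 7.64, within the 4 h range, and a Tcf4 value of 8.75, above all 4 h arrays. At 4 h replicate 2 had the highest marker mean (7.87) and the lowest Tcf4 value (7.68). All 12 markers of this list had a negative change in Ex6DEL and none was called, while 6 had one in WT. Without Ex6DEL 0 h replicate 1 the Tcf4 change in Ex6DEL was -1.06 (limma adjusted p = 0.140). In WT the marker means were 7.56 to 8.76 at 0 h and 7.76 to 7.98 at 4 h. The mean of the granulosa markers also moved, in Ex6DEL from 12.27 to 13.12 at 0 h to 10.55 to 10.70 at 4 h. In WT it moved from 11.48 to 12.49 at 0 h to 10.84 to 11.63 at 4 h. Of the 10 measured markers 3 had a positive change in WT, Amh stayed at the floor, the others had a negative one, and none was called. In Ex6DEL 9 had a negative change, and 3 of these were called, where 1.6% of all genes were called down. The part of these markers in the Id3 and Tcf4 values was not tested. Endothelial markers, of a cell type known to use Id1 and Id3, had means of 3.87 to 5.22 at 0 h and 4.28 to 5.14 at 4 h. Of these 10 genes 2 to 4 per array were within 0.1 of the floor, among them Pecam1 on all arrays. Others were well above it, such as Kdr (5.91 to 9.39), Esam (6.15 to 9.44) and Egfl7 (6.18 to 7.69). The part of endothelial cells in the Id1 and Id3 values was not tested.

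**Figure D2:**
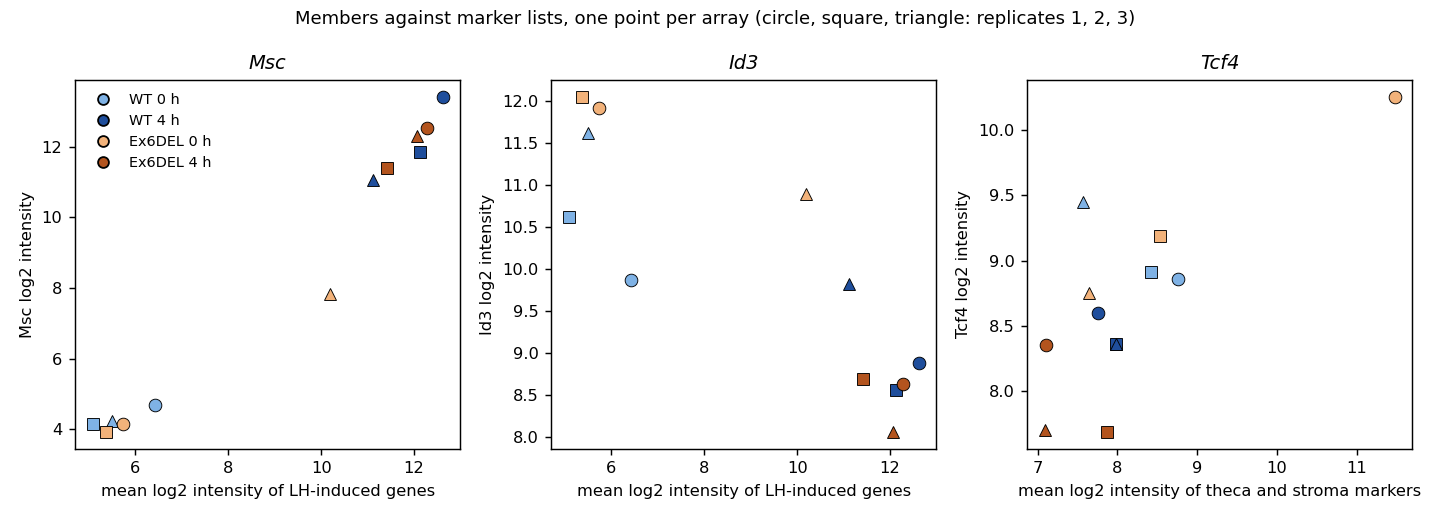
Log2 intensity of Msc, Id3 and Tcf4 (vertical axes) against the mean log2 intensity of a marker list (horizontal axes) with one point per array, coloured by group; circles, squares and triangles are replicates 1, 2 and 3. Ex6DEL 0 h replicate 3 lies between the other 0 h arrays and the 4 h arrays for Msc (7.84, at a list mean of 10.19), and Ex6DEL 0 h replicate 1 has the highest Tcf4 value (10.26) and the highest theca and stroma mean (11.48).

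Tcf3, the gene of E12 and E47, and Tcf12, that of HEB, showed no call. Tcf3 read 7.09, 7.62 and 7.66 in WT at 0 h and 6.36, 8.10 and 7.77 at 4 h on probe set 1426297_at, and the groups overlapped. In Ex6DEL it read 8.10, 7.95 and 7.77 at 0 h and 6.48, 7.40 and 7.69 at 4 h, without overlap. The Tcf3 change was -0.05 in WT (interval -1.10 to 1.01, adjusted p = 1) and -0.75 in Ex6DEL (interval -1.80 to 0.30, adjusted p = 0.460). The other Tcf3 probe sets were dim, with means of 2.91 and 2.21. Tcf12 read 8.75, 9.64 and 9.83 in WT at 0 h and 10.65, 9.60 and 9.40 at 4 h on probe set 1427670_a_at. In Ex6DEL it read 9.54, 9.54 and 9.57 at 0 h and 10.62, 9.43 and 9.38 at 4 h, and the groups overlapped in both genotypes on this set. The Tcf12 change was 0.48 in WT (interval -0.53 to 1.49, adjusted p = 0.681) and 0.26 in Ex6DEL (interval -0.75 to 1.27, adjusted p = 0.858). All 5 Tcf12 probe sets had a positive change in WT, from 0.13 to 0.68, and 4 of them in Ex6DEL, none called. The set with 0.13, 1439619_at, was dim, with a mean of 2.36, and within 0.1 of the floor on 8 arrays. In WT all 4 h arrays lay above all 0 h arrays for 2 of the sets, 1421908_a_at (0.68) and 1446294_at (0.14). This held for 7.23% of all probe sets in WT, and in Ex6DEL for none of the Tcf12 sets. For 1446294_at the WT 0 h arrays all held the same value, 5.8891, and the lowest WT 4 h value was 5.8903. For 1421908_a_at in Ex6DEL the highest 0 h and the lowest 4 h value were equal, at 7.2257. Of these sets 1421908_a_at had 0.57 (SE 0.16, adjusted p = 0.0874) as the mean of both genotypes, and a further set, 1439209_at, had 0.60 (SE 0.35). At 4 h, replicate 1 was the lowest array for Tcf3 and the highest for Tcf12 and Id4 in both genotypes. Intervals of these widths do not show that the genes were unchanged.

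**Figure D3:**
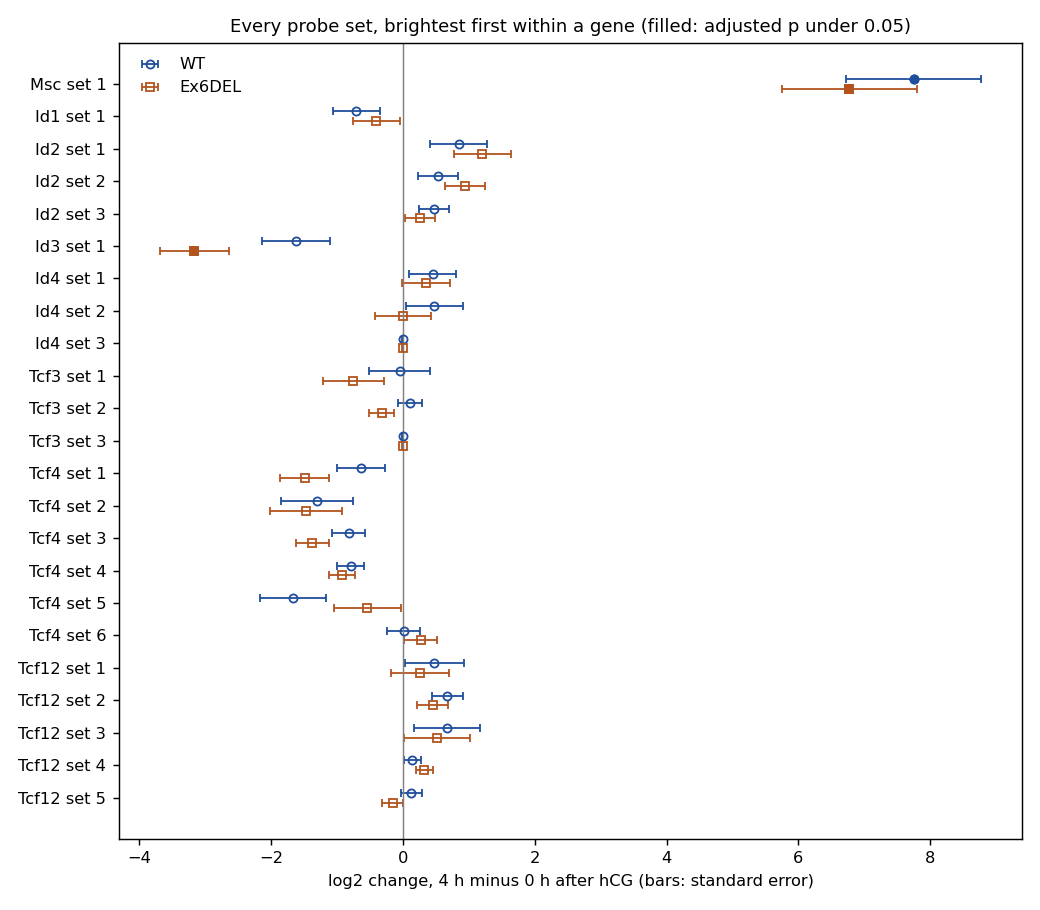
Log2 change after hCG (4 h minus 0 h, horizontal axis, with standard errors) of all 23 probe sets in WT (circles) and Ex6DEL (squares), brightest first within a gene; filled symbols have an adjusted p under 0.05 over all probe sets. Filled symbols are Msc in both genotypes and Id3 in Ex6DEL, and 5 of the 6 Tcf4 sets lie left of zero in each genotype.

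The WT and Ex6DEL responses use different arrays, and their mean asks which members changed after hCG irrespective of genotype. This contrast was added after the data had been seen. In it limma called 3 of the 8 genes, 1 up and 2 down, against 9.72% of all genes (3.1% up and 6.62% down), and 4 had an unadjusted p under 0.05, against 23.1%. Msc rose by 7.26 (SE 0.72, limma adjusted p = 0.0023). Id3 fell by 2.39 (SE 0.37, limma adjusted p = 0.00808) and Tcf4 fell by 1.06 (SE 0.26, limma adjusted p = 0.0388). For these 3 genes none of the 6 arrays of 4 h overlapped with the 6 of 0 h, which was so for 7.67% of all genes (2.48% higher and 5.18% lower at 4 h). Over the 4 h arrays Tcf4 had 7.68 to 8.60 with a median of 8.36, and over the 0 h arrays 8.75 to 10.26 with a median of 9.05. Id2 had 1.03 (SE 0.30, adjusted p = 0.071), Id1 -0.55 (adjusted p = 0.228), Id4 0.40 (adjusted p = 0.421), Tcf3 -0.40 (adjusted p = 0.556) and Tcf12 0.37 (adjusted p = 0.570). Over all probe sets 4 members were called, against 6.06% of all sets. They were those of Msc and Id3 and 2 of Tcf4, which had -1.10 (SE 0.18, adjusted p = 0.0128) for 1416724_x_at and -0.85 (SE 0.14, adjusted p = 0.0129) for 1424089_a_at. Including these, 4 sets had all 4 h arrays below all 0 h arrays, against 3.56% of all sets. The ending _x_at marks a set whose probes can match other transcripts. The calls of Msc and Id3 passed in all 12 fits without 1 array. That of Tcf4 passed in 3 of them, those without Ex6DEL 0 h replicate 1 (-0.84), Ex6DEL 0 h replicate 3 (-1.22) or Ex6DEL 4 h replicate 1. It was lost without any of the WT arrays, Ex6DEL 0 h replicate 2 or Ex6DEL 4 h replicates 2 and 3 (-1.11 to -0.97, adjusted p = 0.0527 to 0.0938).

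**Figure D4:**
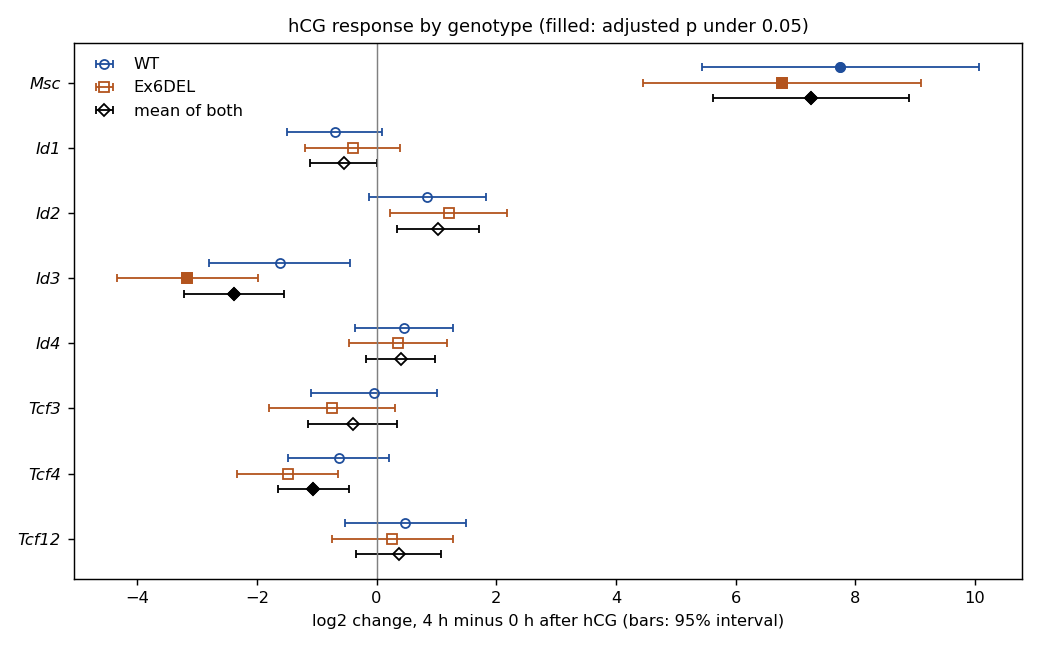
Log2 change after hCG (4 h minus 0 h) with its 95% interval for the 8 genes in WT (circles), Ex6DEL (squares) and as the mean of both (diamonds); filled symbols have a limma adjusted p under 0.05 over all genes. Msc (7.75 and 6.77) lies far to the right, Id3 (-1.62 and -3.16) and Tcf4 (-0.63 and -1.49) to the left.

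Whether the deletion of exon 6 altered these genes was asked at each time and as a difference between the responses. Limma called none of the 8 genes at 0 h, none at 4 h and none in the interaction, and none had an unadjusted p under 0.05 in any of these comparisons. Over all genes 0.033%, 0% and 0.011% were called, and 5.36%, 1.62% and 3.2% had an unadjusted p under 0.05. Tcf3 at 0 h was higher on all Ex6DEL arrays than on all WT arrays, as were 3.96% of all genes, and 2.45% were lower. Tcf4 at 4 h was lower on all Ex6DEL arrays, as were 2.02% of all genes, and 0.962% were higher. The smallest of these p-values was that of the Id3 interaction, at -1.54 (SE 0.73, interval -3.21 to 0.13, limma unadjusted p = 0.0659, adjusted p = 0.871). It combines a difference of 0.92 between Ex6DEL and WT at 0 h with one of -0.63 at 4 h. The decrease of Id3 was called in Ex6DEL and not in WT, and this interaction does not show that the responses differed. Msc differed by 0.95 at 0 h (interval -1.37 to 3.27) and by -0.04 at 4 h (interval -2.36 to 2.29). Without both 0 h arrays with raised LH-induced genes the Msc difference at 0 h was -0.16. Tcf4 differed by 0.32 at 0 h and -0.53 at 4 h, with an interaction of -0.85 (SE 0.52, adjusted p = 0.871). For Id1, Id2, Id4, Tcf3 and Tcf12 the genotype differences lay between -0.22 and 0.53, each with an adjusted p of at least 0.911.

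Each member was also compared with the 6674 genes whose SD over the 12 arrays was at least 0.5. Pearson's r over the 12 arrays was used, which fall into 0 h and 4 h groups, so these values describe likeness of pattern only. The closest genes to Msc were Plau, the urokinase gene (r = 0.994), Chst15, a sulfotransferase gene of chondroitin sulfate (r = 0.991), and Errfi1, an inhibitor of the EGF receptor (r = 0.989). Those closest to Id3 were the chromatin remodeller gene Chd1l (r = 0.990), Rp9 (r = 0.981) and Foxl2os (r = 0.980), the antisense neighbour of the granulosa factor gene Foxl2. Id2 was closest to Mllt11 (r = 0.935), Pdlim5 (r = 0.920) and Tubb6 (r = 0.906), and Tcf4 to the fatty acid carrier gene Fabp5 (r = 0.976), Unc13b (r = 0.964) and Lamtor5 (r = 0.962). Tcf3 was closest to Srrd (r = 0.972), Ncln and Vars, and Tcf12 to Rab8b (r = 0.975), Sec23a and Krr1. Id1 and Id4 had an SD of 0.48 and 0.45 and were left out of this comparison. Among the members themselves, r was -0.88 between Msc and Id3, 0.86 between Id3 and Tcf4, 0.77 between Msc and Id2 and -0.80 between Id2 and Id3. On deviations from the group means these were -0.62, 0.50, 0.41 and -0.60. Over the 12 arrays r was also -0.80 between Id2 and Tcf4 and -0.78 between Msc and Tcf4. For Id4, which was close to the floor, it was -0.85 with Tcf3 and 0.80 with Tcf12.

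Partners of E proteins outside the 8 genes gave no call. Of 39 such class II factors 37 were measured, 8 of them within 0.1 of the floor on all arrays. In WT, in Ex6DEL and in the mean of both, limma called none, against 0.929%, 2.17% and 9.72% of all genes. An unadjusted p under 0.05 was reached by 2, 1 and 2 of the 37, against 14.4%, 18.9% and 23.1% of all genes. Their median change was 0 in WT, as for all genes. Tcf21, a mesenchymal factor that is also in the theca and stroma list, had -1.30 in WT and -2.95 in Ex6DEL (adjusted p = 0.579 and 0.130). Tcf23 had -0.67 in WT (adjusted p = 0.0619). Twist2 (-0.31 in WT), Hand2, Neurog3 and Olig2 were within 0.1 of the floor on 8 to 11 arrays, and Tcf24 had 0.61 in Ex6DEL (adjusted p = 0.366).

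Of 29 other helix-loop-helix factors none was called in WT and 1 in Ex6DEL, against 0.929% and 2.17% of all genes, and 7 and 12 had an unadjusted p under 0.05, against 14.4% and 18.9%. The mean of both genotypes called 3 up and 4 down, against 3.1% and 6.62% of all genes. The list had a median of -0.22, against -0.01 for all genes. For genes whose mean level lay above the median of all genes it was -0.20, close to that of the list. Mxd4, a MAX partner that opposes MYC, fell by 1.73 in Ex6DEL (SE 0.35, limma adjusted p = 0.0465). In the mean of both, Hey1, a Notch target, rose by 4.38 (adjusted p = 0.043), the clock repressor gene Bhlhe40 by 2.16 (adjusted p = 0.0325) and Mxi1, another MYC antagonist, by 1.31 (adjusted p = 0.0282). Hey2 fell by 2.10 (adjusted p = 0.0224), Mxd4 by 1.24, Mycn by 1.14 (adjusted p = 0.0172) and Mlx by 0.77 (adjusted p = 0.0374). Hey1 and Hey2, close relatives, thus changed in opposite directions in these limma contrasts.

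Of 32 BMP and SMAD genes 31 were measured, and 1 was called in each genotype, against 0.929% of all genes in WT and 2.17% in Ex6DEL. Bmper, a secreted BMP-binding protein, rose by 4.95 in WT (SE 0.74, limma adjusted p = 0.0288) and by 4.39 in Ex6DEL (SE 0.74, limma adjusted p = 0.0326). The mean of both called 3 up and 2 down, against 3.1% and 6.62% of all genes. The ligand gene Bmp6 rose by 1.73 (adjusted p = 0.0081), Smad7, an inhibitor of the pathway, by 0.93 (adjusted p = 0.0412), and the receptor genes Bmpr1b and Amhr2 fell by 1.43 (adjusted p = 0.0283) and 1.52 (adjusted p = 0.0471) by limma. Amhr2 is also one of the granulosa markers, whose list means were lower at 4 h, with overlap between arrays in WT. Acvrl1 was within 0.1 of the floor on 10 arrays. Among 21 cofactors and turnover genes none was called in WT (0.929% of all genes), with 2 at an unadjusted p under 0.05 (14.4% of all genes). In Ex6DEL 1 was called down (1.6% of all genes). It was Cbfa2t3, a corepressor of the ETO family, which fell by 4.08 (SE 0.85, limma adjusted p = 0.0498) and had -2.70 in WT (adjusted p = 0.196). The mean of both called 1 up and 1 down, against 3.1% and 6.62% of all genes. In it Cbfa2t3 fell by 3.39 (adjusted p = 0.0127), and the cell cycle inhibitor gene Cdkn1a rose by 3.69 (adjusted p = 0.0107) by limma. Cbfa2t2, Lmo4 and Hspa8 had -0.54, 0.93 and -0.15 in that contrast and were not called.

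**Figure D5:**
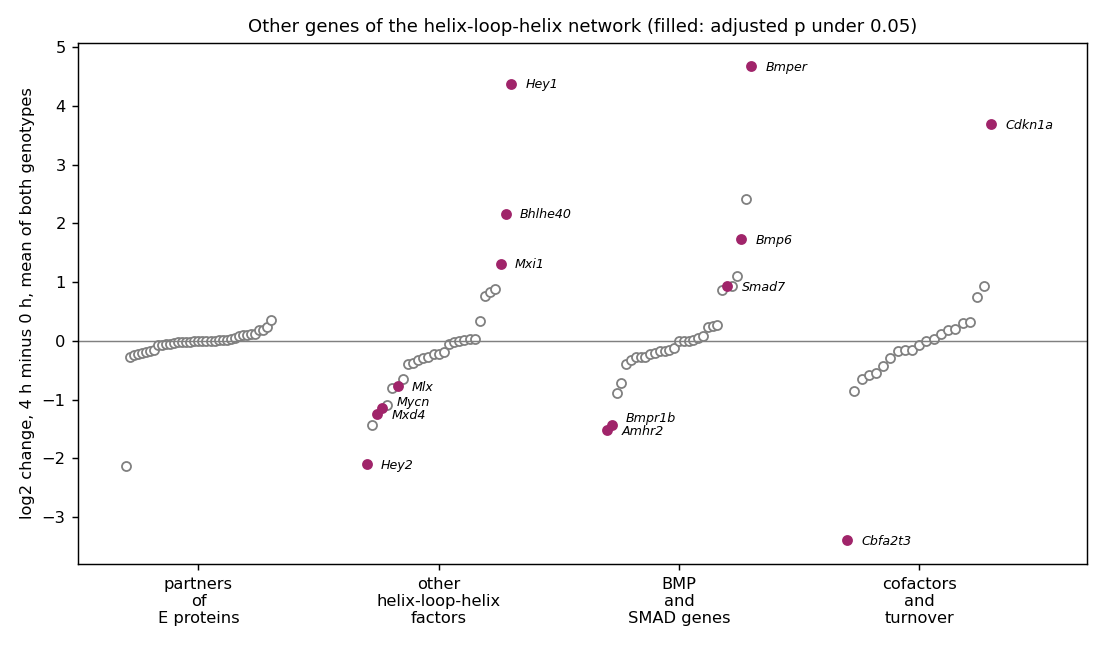
Log2 change after hCG (4 h minus 0 h, mean of both genotypes, vertical axis) of the measured genes of 4 lists, sorted within a list, one point per gene; filled points have a limma adjusted p under 0.05 over all genes and are named. None of the 37 partners of E proteins is filled, while Hey1 (4.38), Bmper (4.67) and Cdkn1a (3.69) rise and Cbfa2t3 (-3.39) falls.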

How the data were processed

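The authors deposited 1 log2 intensity for each probe set and array, made with GCRMA (version not given) per the submitters' processing notes, which corrects background, normalizes between arrays and summarises probes. Other steps are not given in the sources used here. Symbols came from the platform annotation, updated through the gene ID: 34958 probe sets had 1 symbol, 932 had several and 9211 were not listed, and both of these kinds were left out. A gene was represented by the probe set of highest mean over the 12 arrays, which gave 18194 genes, and every probe set was also tested by itself. Per array, 36.4% to 40.5% of the values were no more than 0.1 above the floor, and the number of arrays limits the precision.

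One model of 4 groups was fitted to the 12 arrays with limma 3.58.1 in R 4.3.3 (lmFit, eBayes without trend, 8 residual and 0.626 prior degrees of freedom). Tests were two-sided, adjusted by Benjamini-Hochberg over all genes or all probe sets, and called at an adjusted p under 0.05. Intervals are at 95%. The method was tested on simulated data. Members, lists and tests were chosen with earlier results of these data known. Named genes are the 8 members and, in each list, the up to 4 with the smallest p in either genotype. Those called in the mean of both genotypes were named as well, chosen after their values were seen. Alternatives were other scalings, filters, probe set rules, weights, a replicate block and arrays left out. The labels number the replicates alike in all groups. Deviations from the group means were correlated between same-numbered arrays of 0 h and 4 h. The correlation was over 0.1 in all 3 pairs of Ex6DEL (0.143, 0.405 and 0.242) and in 1 of 3 pairs of WT (0.236). Between same-numbered arrays of the 2 genotypes it was 0.727, 0.372 and -0.016 at 4 h. At 0 h it was 0.180, 0.555 and -0.045 there. The numbers may therefore link arrays within Ex6DEL and also between the genotypes, which the labels do not state. The main model did not use the numbers, and with them as a block no Ex6DEL call of the 8 genes remained. Of all genes 92 were called in Ex6DEL with the block and 394 without it. Over all groups 11 of 18 same-numbered pairs and 7 of 36 others passed 0.1.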

Additional observations from a re-analysis of the deposited data

How the results depend on the processing

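Of the 8 genes, 1 was called in WT, 2 in Ex6DEL and 3 in the mean of both genotypes, and of the 23 probe sets 1, 2 and 4. Without single arrays the counts of genes ranged from 0 to 1, 0 to 3 and 2 to 3, and those of probe sets from 0 to 2, 0 to 5 and 4 to 6. The calls over all genes then ranged from 50 to 344, 26 to 1256 and 895 to 2217. Those over all probe sets ranged from 66 to 409, 39 to 1332 and 1025 to 2838. Fits of only the groups compared called 0 genes and 0 probe sets in WT and in Ex6DEL, where Id3 had an adjusted p of 0.134. The model then has fewer arrays, and it called 17 of all genes in WT and 10 in Ex6DEL. With the replicate number as a block, 1 gene was called in WT, 0 in Ex6DEL (Msc, adjusted p = 0.0559, and Id3, 0.0643) and 3 in the mean, with 0, 0 and 4 probe sets. The calls over all genes were then 85, 92 and 1717, and over all probe sets 116, 55 and 1868. The block changed no other call of the 8 genes. Array weights gave 3, 2 and 4 genes (Id1 at -1.14 and Id3 at -1.67 were called in WT) and 4, 1 and 7 probe sets. Of all 18194 genes array weights called 2289, 413 and 3006, where the main fit called 169, 394 and 1768. An alternative added after seeing the data left out both 0 h arrays with raised LH-induced genes. The counts were then 1, 3 and 5 genes and 2, 4 and 5 probe sets, and 320, 1293 and 2301 of all genes. Id1 (-0.82, adjusted p = 0.0491) and Id2 (1.27, adjusted p = 0.05) then passed in the mean, and Tcf4 in Ex6DEL (-1.81, adjusted p = 0.0386). Member probe sets called were 7 in the mean under quantile normalization (2737 of all 34958), where the main fit called 2119 of all. In Ex6DEL they were 4 with arrays shifted to one median (688 of all) and 1 with low values raised (165 of all). The main fit called 300 of all there. Among sets above the median level, where fewer were tested, 5 were called in Ex6DEL and 9 in the mean. Of all 17479 such sets 1718 and 3887 were called. Tested as a probe set, Tcf4 had an adjusted p of 0.0512 in the mean. For array weights, quantile normalization, the shift and the block, the cause was not tested.

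No gene whose sign turned was called in that comparison. Quantile normalization turned the genotype difference at 0 h to -0.046 for Id2, -0.0026 for Tcf4 and -0.18 for Tcf12, that at 4 h to 0.19 for Msc and 0.058 for Tcf12, and the interaction of Tcf12 to 0.23. The mean of all probe sets gave 0.022 for Tcf3 in WT, 0.072 for Id4 and -0.12 for Tcf4 at 0 h, and 0.015 for Tcf12 at 4 h. Array weights gave -0.082 for Tcf12 at 0 h, 0.11 for Msc at 4 h, and interactions of 0.065 for Id4 and 0.076 for Tcf12. Without both raised arrays the difference at 0 h was -0.16 for Msc and -0.20 for Tcf12, and both interactions were 0.12. Without single arrays, the difference at 0 h ranged from -0.32 to 1.64 for Msc, -0.52 to 0.022 for Id1, -0.23 to 0.47 for Id2, -0.18 to 0.013 for Id4, -0.11 to 0.65 for Tcf4 and -0.19 to 0.35 for Tcf12. That at 4 h ranged from -0.56 to 0.62 for Msc, -0.10 to 0.32 for Id1, -0.45 to 0.24 for Id4, -0.75 to 0.13 for Tcf3 and -0.48 to 0.31 for Tcf12. The interaction ranged from -1.67 to 0.29 for Msc, -0.34 to 0.35 for Id4 and -0.62 to 0.17 for Tcf12. The response ranged from -0.39 to 0.48 for Tcf3 in WT and from -0.14 to 0.48 for Tcf12 in Ex6DEL. Changes near the floor, as for Id4, cannot be read.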
